A study of Mus musculus with 2 samples.

Results

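Heat shock chaperones of the cytosol and mitochondria were read in RNA of mouse peritoneal macrophages, the phagocytes of the abdominal cavity. The set holds 35 genes, chosen from a list of chaperones, their partner proteins and their transcription factors by textbook function, and 34 of them have a row among the 50608 rows of the deposited table. Hspb1 was not analysed here. One library came from cells treated with GW3965, a drug that activates the nuclear receptors LXR alpha and beta, and one from cells given the solvent DMSO. Both came from C57BL6J mice, with males and females pooled and the stage recorded as embryonic day 15.5, and neither carries a mutation or transgene by its labels. The labels give neither dose, duration of treatment nor the number of pooled mice. The column read as GW3965 was matched by the first letters of its name, which fit only the GW3965 sample, whereas the last letters fit no label, so every statement on GW3965 rests on that match.

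Chaperones bind unfolded or partly folded proteins and keep them from clumping. Hsp70 proteins do this in cycles of ATP use, in which J proteins (Hsp40) deliver clients and exchange factors such as the Hsp110 and BAG proteins release the nucleotide. Hsp90 acts later, on clients such as steroid receptors and kinases, and the chaperonin TRiC folds actin and tubulin inside a closed barrel. Most of these genes are transcribed in unstressed cells, while a smaller group is switched on by heat or misfolded protein through the factor Hsf1, which binds repeated GAA units in promoters called heat shock elements.

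Values are FPKM as deposited, fragments scaled to gene length and library depth, and 1 library per group gives no replicate check and no test of the treatment. Whole-number steps between low values, together with annotated gene lengths, gave depths of about 75287000 reads for GW3965 and 101866000 reads for DMSO. From these the reads behind each chaperone were estimated, from 37 to 35266 per library. The 95% intervals beside the ratios are exact conditional (Clopper-Pearson) intervals of those reads and cover counting error only. Most rows were somewhat higher in the GW3965 library, although the FPKM of all rows summed to less there, 1138432 against 1370700 in DMSO. This shift of the table, taken row by row, is given once here. Among the 11889 rows with a mean of at least 1 FPKM, called measured, the median FPKM ratio of GW3965 over DMSO was 1.25, and the median log2 ratio after adding 1 FPKM to each value was 0.24. Log2 ratios less this median are called centred, and their central 90% ran from -0.27 to 0.28. Adding 1 FPKM shrinks the ratios of low rows more than those of high rows, which is why both medians are given. Of 10 listed macrophage markers Adgre1 was not analysed here. Of the other 9, 8 were measured, from the lysozyme gene Lyz2 at 4820 FPKM in GW3965 and 4050 FPKM in DMSO to Fcgr1 at 2.01 and 1.08 FPKM. Cx3cr1 had 0.069 and 0.0617 FPKM, and Mertk had the highest ratio of the 9, 2.05. Of the markers of resident peritoneal macrophages 7 of 8, Gata6 among them, were below 1 FPKM in both libraries. The 13 mesothelial and fibroblast markers summed to 32.9 FPKM in GW3965 and 21.6 FPKM in DMSO, with none at 0 and 7 measured. The 6 T and NK cell markers summed to 0.644 and 0.359 FPKM, and the 5 B cell markers to 68.3 and 11.9 FPKM, of which Ighm made up 64.4 and 9.26 FPKM. Their part in the results on chaperones was not tested, and in bulk RNA fewer cells of a type and less RNA per cell cannot be told apart.

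Of the 34 chaperones with a row, 33 had a higher FPKM in the GW3965 library, and 32 were measured. Of these 32, 31 were higher there, against 11123 of the 11889 measured rows. Only Hsph1 and Hspa1a, that is 2 of 32 or 6.25%, were higher by 1.5-fold with 1 FPKM added, against 3.46% of all measured rows. Of these, Hspa1a counted as measured only through its GW3965 value, and at a mean of at least 5 FPKM 1 chaperone was higher. None of the 32 was lower by 1.5-fold, against 0.0757% of rows. After centring, 0 of the 32 were higher and 0 lower by 1.5-fold, against 1.38% and 0.336% of rows. For 32 genes, counts of 0 are near these shares. Within the central 90% of rows, a range set to hold that share of all measured rows, lay 28 of the 32. Hsph1, Hspa1a and Hsp90aa1 lay above that range and Bag3 lay below it. The median FPKM ratio was 1.29 over the 32 chaperones, beside 1.25 for all measured rows and 1.22 for the 5053 rows with a mean of at least 5 FPKM. Counting intervals lay above the median ratio of rows for 15 of the 32 chaperones and below it for 9, beside 24.2% and 34.5% of the 8937 rows with an annotated length. Intervals narrow with more reads, and 29 of the 32 chaperones had a mean of at least 5 FPKM, against 5053 of 11889 measured rows. These shares are therefore not matched in read number.

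**Figure D1:**
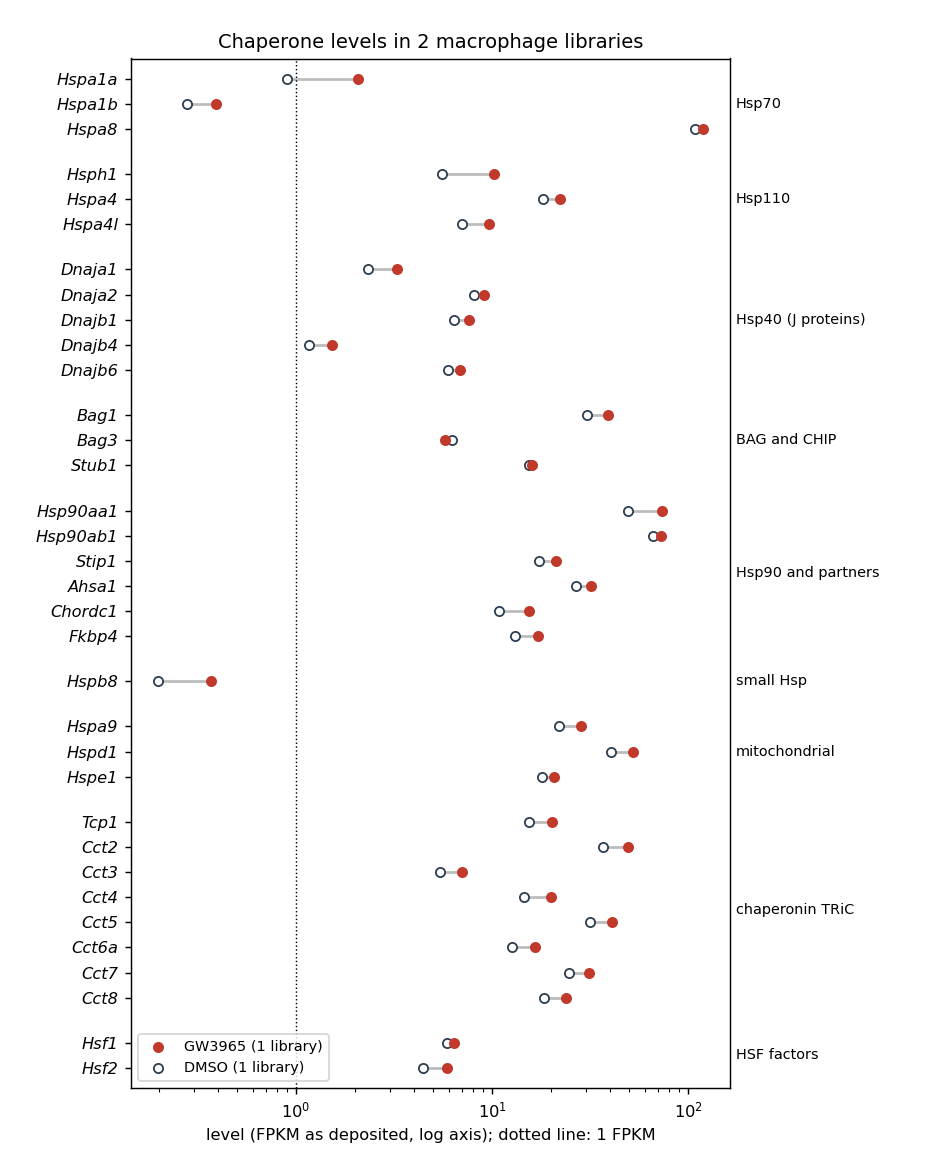
FPKM as deposited (log axis) of the 34 chaperones, grouped by role, with filled points for the GW3965 library and open points for the DMSO library. Hspa8, Hsp90aa1 and Hsp90ab1 stand highest in both libraries, Hspa1b and Hspb8 stand below 1 FPKM, and Bag3 alone has its GW3965 point on the left.

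Hsp70 itself was present in these cells mainly as its constitutive form. Hspa8, the Hsp70 that all cells make and the most abundant of the 34 mRNAs, had 119 FPKM in GW3965 and 109 FPKM in DMSO, a ratio of 1.09 (1.07 to 1.11), which is below the shift of the table. Of its 100-base windows 28.2% also occur in 7 annotated pseudogenes. The stress-inducible Hspa1a had 2.08 FPKM in GW3965 and 0.902 FPKM in DMSO, or an estimated 507 and 297 reads. Its ratio of 2.31 (2.0 to 2.67) was the largest of the 34, and its centred log2 ratio was 0.45. It counted as measured only through its GW3965 value. Its neighbour and near-identical copy Hspa1b had 0.388 and 0.276 FPKM, an estimated 81 and 78 reads, with a ratio of 1.41 (1.02 to 1.94). The level of Hspa1a plus Hspa1b was 0.0208 of that of Hspa8 in GW3965 and 0.0108 in DMSO. Rows near the floor were also higher in the GW3965 library. The 1083 olfactory receptor rows, a family mostly silent outside the nose, had medians of 0.069 FPKM in GW3965 and 0.0261 FPKM in DMSO. These levels are far below that of Hspa1a, so they do not describe rows at its level. With 1 FPKM added, the log2 ratio of Hspa1a ranked 253 from the top among measured rows.

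The pair of inducible Hsp70 genes lies on chromosome 17 of GRCm38, with Hspa1a at chr17:34969190-34972156 and Hspa1b at chr17:34956436-34959238, both on the minus strand. Their promoters are shown because the copies are nearly the same there too, 247 of the 250 bases before the start being identical (RefSeq, GRCm38.p6; chr17:34972157-34972406 and chr17:34959239-34959488, minus strand, 5′ to 3′). Capitals mark a pair of GAA and TTC units spaced by 2 bases, GAAGATTC, which begins 104 bases before the start in both.
Hspa1a: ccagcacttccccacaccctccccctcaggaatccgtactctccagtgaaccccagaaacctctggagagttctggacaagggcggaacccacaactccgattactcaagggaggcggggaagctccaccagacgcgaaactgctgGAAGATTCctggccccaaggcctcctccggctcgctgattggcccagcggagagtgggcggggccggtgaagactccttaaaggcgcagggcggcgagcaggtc
Hspa1b: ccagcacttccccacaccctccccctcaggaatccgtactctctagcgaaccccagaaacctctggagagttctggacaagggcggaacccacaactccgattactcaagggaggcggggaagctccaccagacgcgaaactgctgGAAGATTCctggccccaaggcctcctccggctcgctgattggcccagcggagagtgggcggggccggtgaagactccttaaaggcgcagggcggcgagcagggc

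Transcripts of both copies cannot be fully told apart by short reads. Of all 100-base windows of the annotated Hspa1a transcripts, 48.6% also occur in another gene, and 49.9% of those of Hspa1b, with 1350 windows common to both copies. No label says how such reads were counted, so the split between Hspa1a and Hspa1b is uncertain. Hspa1l, another gene of the locus and a relative best known from testis, had 1.42 FPKM in GW3965 and 0.681 FPKM in DMSO, a ratio of 2.09, and shares 4.67% of the Hspa1a windows. On the opposite strand the annotated gene Gm20481 overlaps 19% of the exon bases of Hspa1a. No label states that the libraries kept strand information.

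The Hsp110 proteins, relatives of Hsp70 that act as its exchange factors, also differed among themselves. Hsph1, the heat-inducible Hsp110, had 10.2 FPKM in GW3965 and 5.54 FPKM in DMSO, an estimated 5605 and 4111 reads, with a ratio of 1.84 (1.77 to 1.92). Its centred log2 ratio of 0.54 was the highest of the chaperones and ranked 196 from the top among measured rows. None of its 100-base windows occurs in another annotated gene. Hspa4, the constitutive Hsp110, had 22.3 and 18.2 FPKM, a ratio of 1.22 (1.19 to 1.26). Hspa4l, a relative induced by heat and osmotic stress in rodents, had 9.62 FPKM in GW3965 and 7.0 FPKM in DMSO, a ratio of 1.38 (1.33 to 1.42). Hspa4 was thus the most abundant of the trio in both libraries, while Hsph1 and Hspa4l changed places, Hsph1 being above Hspa4l in GW3965 and below it in DMSO.

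J proteins, which bring clients to Hsp70 and trigger its ATP use, stayed close to the table's shift. Dnajb1, the J protein most tied to the heat shock response, had 7.67 FPKM in GW3965 and 6.4 FPKM in DMSO, a ratio of 1.2 (1.11 to 1.30) whose interval holds the median ratio of rows. Dnaja1, a J protein with a farnesyl anchor, had 3.28 and 2.34 FPKM, a ratio of 1.4 (1.30 to 1.51). Its relative Dnaja2 had 9.14 and 8.07 FPKM, a ratio of 1.13 (1.06 to 1.2), so these close relatives lay on opposite sides of the median ratio of rows. Dnajb4, also stress-inducible, had 1.53 and 1.17 FPKM and a ratio of 1.31 (1.2 to 1.42). Dnajb6, which holds back the aggregation of polyglutamine proteins, had 6.83 and 5.98 FPKM and a ratio of 1.14 (1.09 to 1.2). Of the windows of Dnaja1 and Dnajb6, 9.21% and 14.6% occur in other genes, most of them processed copies. The gene Smu1 on the opposite strand overlaps 7.05% of the exon bases of Dnaja1. Smu1 had 14.7 FPKM in GW3965 and 12.1 FPKM in DMSO, above Dnaja1 itself, so reads of the 2 genes may be mixed.

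Among the remaining helpers of Hsp70, Bag3 went against the other inducible genes. Bag3, which hands Hsp70 clients to autophagy and is a classical target of Hsf1, had 5.77 FPKM in GW3965 and 6.23 FPKM in DMSO, an estimated 1079 and 1577 reads. It was the only chaperone with a lower value in GW3965, at a ratio of 0.926 (0.856 to 1.0). Its centred log2 ratio was -0.34, and it ranked 306 from the bottom of the measured rows, of which 6.44% had a negative log2 ratio as deposited. Bag1, which couples Hsp70 to the proteasome, had 39.2 and 30.5 FPKM, a ratio of 1.28 (1.23 to 1.34). Stub1, which encodes CHIP, the ubiquitin ligase that marks chaperone clients for destruction, had 16 and 15.4 FPKM, a ratio of 1.04 (0.99 to 1.09). The gene Jmjd8 on the opposite strand covers 42.3% of the exon bases of Stub1 and had 4.24 and 4.04 FPKM, so reads of the pair may be mixed.

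Both cytosolic Hsp90 genes were among the highest of the set. Hsp90aa1, the inducible isoform, had 73.5 FPKM in GW3965 and 49.5 FPKM in DMSO, a ratio of 1.49 (1.46 to 1.52). After centring, its log2 ratio was 0.32, at rank 454 from the top. Hsp90ab1, the constitutive isoform, had 73.2 and 66.2 FPKM, a ratio of 1.11 (1.08 to 1.13). The isoforms thus stood at about the same level in GW3965, whereas Hsp90ab1 stood higher in DMSO. Of the Hsp90aa1 windows 38.0% occur in 3 annotated pseudogenes, while none of the Hsp90ab1 windows does. Chordc1, a co-chaperone of Hsp90 that heat induces, had 15.5 FPKM in GW3965 and 10.8 FPKM in DMSO, a ratio of 1.44 (1.39 to 1.48). Fkbp4, the immunophilin of steroid receptor complexes, had 17.2 and 13.1 FPKM with a ratio of 1.31 (1.25 to 1.37). Stip1, the adaptor that passes clients on from Hsp70 to Hsp90, had 21.2 and 17.3 FPKM with a ratio of 1.23 (1.17 to 1.29). Ahsa1, the activator of the Hsp90 ATPase, had 32.1 and 26.9 FPKM with a ratio of 1.19 (1.16 to 1.22). The co-chaperones except Chordc1 lay near the table's shift, and the spread within this group came from Hsp90aa1 and Chordc1 above and Hsp90ab1 below.

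Small heat shock proteins, which hold unfolded clients without using ATP, were represented by Hspb8, the partner of Bag3. It had 0.368 FPKM in GW3965 and 0.198 FPKM in DMSO, an estimated 51 and 37 reads, and was not measured by the limit of 1 FPKM. Its ratio of 1.86 (1.2 to 2.93) has the widest interval of the 34.

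**Figure D2:**
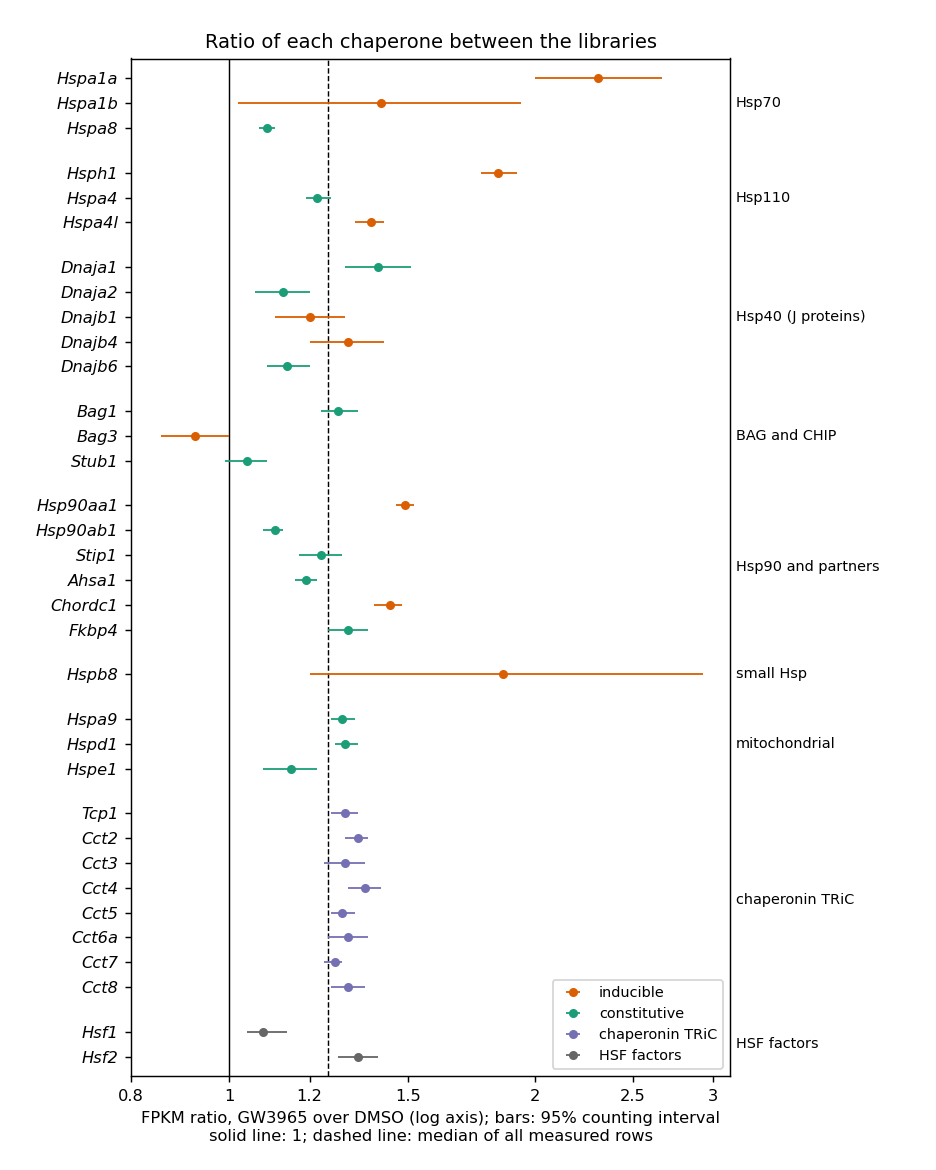
FPKM ratio of GW3965 over DMSO (log axis) for the 34 chaperones grouped by role, with bars for the 95% counting interval, a solid line at 1 and a dashed line at 1.25, the median of all measured rows. The 8 TRiC subunits cluster between 1.27 and 1.36, whereas inducible genes run from Bag3 at 0.926 to Hspa1a at 2.31.

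The 8 subunits of the chaperonin TRiC, each present in equal copy number in the complex, had closely similar ratios. These ran from 1.27 (1.24 to 1.29) for Cct7 to 1.36 (1.31 to 1.41) for Cct4, with 1.34 for Cct2, 1.31 for Cct6a and Cct8, 1.30 for Tcp1 and Cct3 and 1.29 for Cct5. All 8 were above the median of the measured rows, of which 50.0% are so by definition, and their median centred log2 ratio was 0.12. None reached 1.5-fold. Their levels were far less even than their ratios. Cct2 had 49.4 FPKM in GW3965 and 37.0 FPKM in DMSO, Cct5 41.0 and 31.7, Cct7 31.2 and 24.6, Cct8 23.9 and 18.3. Tcp1 had 20.2 and 15.5 FPKM, Cct4 19.9 and 14.6, Cct6a 16.5 and 12.6, and Cct3 7.06 and 5.45. The order of the subunits was therefore the same in both libraries, with the highest 7.0 times the lowest in GW3965 and 6.79 times in DMSO. For Cct3 both libraries gave whole reads at a length of 6910 bases, whereas its principal transcript has 1977. Only lengths from 0.5 to 1.5 times the annotated union exon length less 99 bases were searched, so 1977 was not tried. The length used by the authors is therefore an estimate. Per kilobase of principal transcript, a scale chosen after the data were seen and available for 7 subunits, the highest subunit was Cct7 and the spread was 3.43-fold in GW3965 and 3.52-fold in DMSO. Exons of other genes on the opposite strand overlap Cct6a (Psph, 12.5% of its exon bases) and Tcp1 (Acat3, 11.4%), both minor at 0.957 and 0.737 FPKM in GW3965.

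The mitochondrial chaperones fold proteins imported into the matrix. Hspd1, the mitochondrial chaperonin Hsp60, had 52.5 FPKM in GW3965 and 40.3 FPKM in DMSO, a ratio of 1.30 (1.27 to 1.34). Hspe1, the lid of the same barrel, had 20.7 and 18 FPKM, a ratio of 1.15 (1.08 to 1.22), below that of its partner. Hspa9, the mitochondrial Hsp70 that pulls proteins through the import pore, had 28.5 and 22.0 FPKM, a ratio of 1.29 (1.26 to 1.33). Hspd1 and Hspe1 are read in opposite directions from a shared promoter, and 23.4% of the Hspd1 windows and 10% of the Hspe1 windows occur in other genes. Their exons overlap by 112 bases, which is 7.60% of those of Hspe1.

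The factors themselves were modest in level. Hsf1, the master factor of the heat shock response, had 6.38 FPKM in GW3965 and 5.88 FPKM in DMSO, a ratio of 1.08 (1.04 to 1.14). Hsf2, which can pair with Hsf1, had 5.92 and 4.43 FPKM, a ratio of 1.34 (1.28 to 1.4). Hsf1 is controlled mainly at the protein level, so its mRNA is not a readout of its activity.

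The inducible and constitutive chaperones were then set side by side. The inducible list (Hspa1a, Hspa1b, Hsph1, Hspa4l, Hsp90aa1, Hspb8, Dnajb1, Dnajb4, Bag3 and Chordc1 with a row) had 8 measured genes with a median ratio of 1.41 and a range from 0.926 to 2.31. The constitutive list of 14 had a median of 1.21 and a range from 1.04 to 1.4. On the log2 scale with 1 FPKM added the medians were 0.32 over all 10 inducible genes and 0.26 over the constitutive ones, a difference of 0.057. Over the 8 measured genes the inducible median was 0.45 and the difference 0.18, but Hspa1a had passed the limit only through its GW3965 value while Hspa1b and Hspb8 had not. Adding 1 FPKM brought Hspa1b and Hspb8, with FPKM ratios of 1.41 and 1.86, to log2 ratios of 0.12 and 0.19. These FPKM ratios stood at and above the median ratio of 1.41 over the 8 measured inducible genes. The smaller difference over all 10 genes therefore reflects this shrinkage, not lower FPKM ratios of the 2 genes that came in. The lists overlap in their ratios, and the difference was 0.041 without the 8 genes that share more than 5% of windows with another gene, Hspa1a and Hsp90aa1 among them. The difference was 0.20 at a mean of at least 5 FPKM, a filter that left out Hspa1a, and 0.20 with either a narrower or a wider inducible list. The size of the difference between the list medians thus depends on the genes kept and, where low genes are kept, on the added 1 FPKM.

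Ratios between paired genes inside 1 library do not depend on how the libraries are scaled. Hsph1 stood at 0.459 of the level of Hspa4 in GW3965 and at 0.305 in DMSO, a ratio of 1.51 between these balances (1.43 to 1.58). Hsp90aa1 stood at 1.0 of Hsp90ab1 in GW3965 and 0.748 in DMSO, a ratio of 1.34 (1.31 to 1.38). Hspa1a stood at 0.0175 of Hspa8 in GW3965 and 0.00827 in DMSO, a ratio of 2.12 (1.83 to 2.46). In these pairs the inducible member held a larger part in the GW3965 library. For Hspa4l over Hspa4 the ratio was 1.12 (1.07 to 1.17), and for Dnajb1 over Dnaja2 it was 1.06 (0.959 to 1.17), an interval that holds 1. Hspa1b over Hspa8 gave 1.29 (0.934 to 1.79), which also holds 1. Bag3 over Bag1 went the other way, at 0.147 in GW3965 and 0.204 in DMSO, a ratio of 0.721 (0.658 to 0.789). Hspe1 over Hspd1, a pair with no inducible member in the lists used here, gave 0.884 (0.826 to 0.945).

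**Figure D3:**
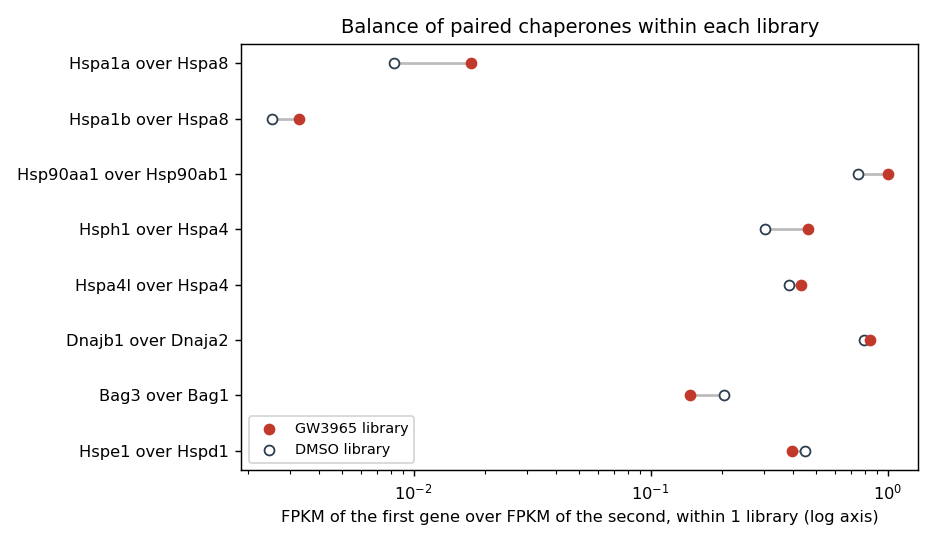
Level of the first gene of each pair as a multiple of the second within 1 library (FPKM over FPKM, log axis), with filled points for GW3965 and open points for DMSO. The balance is higher in GW3965 for the top 6 pairs, by 2.12 times for Hspa1a over Hspa8 and 1.06 times for Dnajb1 over Dnaja2, and lower for Bag3 over Bag1 and Hspe1 over Hspd1.

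Promoter sequences were searched for heat shock elements to see which chaperones carry one near the start. The search was for GAA and TTC units in alternation with 2 bases between them (GAANNTTC or TTCNNGAA, each a palindrome in its units), on both strands, in windows from 250 bases before to 50 bases after each start. Units had to match exactly, so units with a changed base were not counted and elements may be longer than shown. Of the 34 genes 28 had a window in RefSeq (GRCm38.p6), the others being Hspa8, Hsp90aa1, Hsp90ab1, Hspa9, Cct4 and Hsf1. A pair of units was present in 16 of the 28 genes, or 57.1%, against 17.0% of 27025 genes. A run of 3 units, which holds 2 overlapping pairs, was present in 5 of 28, or 17.9%, against 0.662% of genes. By list, the pair was found in 7 of 9 inducible, 6 of 11 constitutive and 3 of 7 TRiC genes. The run of 3 was found in 2 of 9, 3 of 11 and 0 of 7 of them. The genes were chosen by function, so these shares describe the set only.

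The genes with a run of 3 units are shown, since they include both Hsph1 and Chordc1, which had high ratios, and Hspe1, Hspd1 and Dnajb6, which did not all share them. Capitals mark the units and the bases between them, 5′ to 3′ on the strand of the gene. The element between Hspe1 and Hspd1 is given once, at chr1:55088053-55088082, plus strand. The others are at chr9:18292260-18292289 (plus) for Chordc1, chr5:149636279-149636308 (minus) for Hsph1 and chr5:29735844-29735873 (plus) for Dnajb6.
Hspe1: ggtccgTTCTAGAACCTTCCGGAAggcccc
Chordc1: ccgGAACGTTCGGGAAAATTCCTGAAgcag
Hsph1: gctgcagaTTCTGGAAAGTTCtcctcagta
Dnajb6: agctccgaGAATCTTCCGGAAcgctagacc

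The same kind of element went with different ratios. Chordc1, with an unbroken row of units across its start, had a ratio of 1.44, and Hsph1, whose units lie just past the start, 1.84. Dnajb6 had 1.14, and the element shared by Hspd1 and Hspe1 stood beside ratios of 1.30 and 1.15. Hspa1a and Bag3, with a single exact pair each in the window searched, had the highest and the lowest ratio of the 34.

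Other chaperones and co-chaperones outside the set were described list by list, beside a median centred log2 ratio of 0.11 for the set. The further Hsp70 system genes, 19 of 25 measured, had a median centred log2 ratio of 0.011, with Hspa13, an Hsp70 of microsomes, highest at 5.49 FPKM in GW3965 and 3.89 FPKM in DMSO, ahead of Dnajc5 and Dnajc2. At its low end, picked after the values were seen, the testis-rich Hsp70 gene Hspa2 had 1.31 and 1.46 FPKM and Bag6 6.92 and 7.16 FPKM, both below the central 90% of rows after centring. The Hsp90 system, 11 measured, had a median of -0.009, with Ptges3, the co-chaperone p23, at 23.4 and 18.5 FPKM and Ppp5c and Sugt1 next. Prefoldin, which hands actin and tubulin to TRiC, and related helpers had 6 measured genes and a median of 0.12, close to that of TRiC itself. Their centred log2 ratios spread more widely, from -0.14 to 0.33, against 0.078 to 0.18 for TRiC. Vbp1, a prefoldin subunit, stood at 8.4 FPKM in GW3965 and 5.34 FPKM in DMSO, or 0.33 on the centred log2 scale, with Pfdn4 and Pdcl3 at 0.13 each. The 11 mitochondrial helpers had a median of 0.022, with the protease subunit Clpx, Hscb and Grpel2 highest. Of small heat shock proteins Cryab had 1.25 and 0.960 FPKM and Hspb11 2.24 and 1.92 FPKM. The Hsf1-binding protein gene Hsbp1 had 52.1 and 43.4 FPKM. In each of these 6 lists, 0 measured genes were higher and 0 lower by 1.5-fold, against 3.46% and 0.0757% of rows.

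Chaperones of the endoplasmic reticulum gave the highest median among the chaperone lists outside the set, 0.16 after centring over 12 measured genes. The co-chaperone Dnajc3, which assists the reticulum's Hsp70, had 24.2 FPKM in GW3965 and 13.4 FPKM in DMSO, and was the 1 gene of the list past 1.5-fold as deposited, against 3.46% of all measured rows, with 0 past it after centring. Hsp90b1, the Hsp90 of the reticulum, had 80.7 and 55.2 FPKM and Dnajb9 8.64 and 6.05 FPKM.

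**Figure D4:**
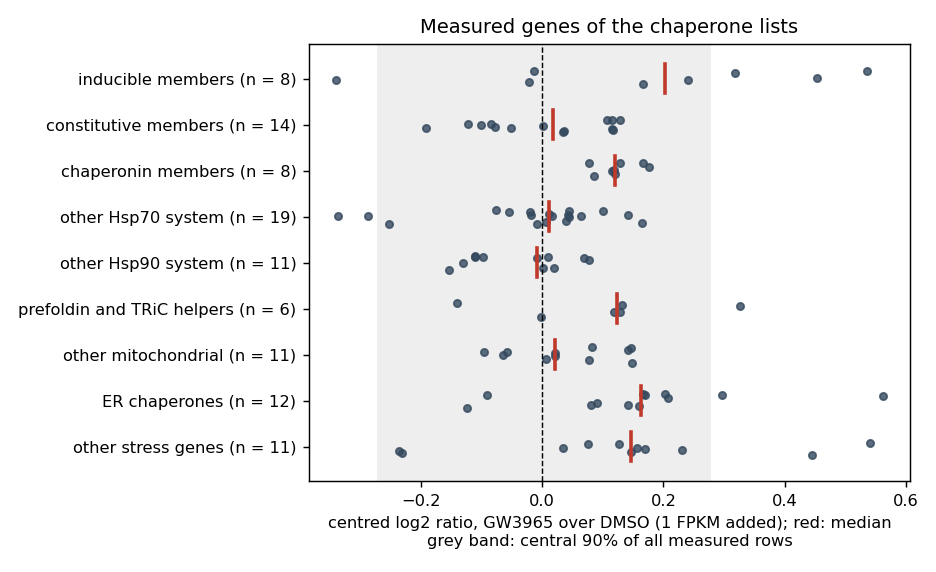
Centred log2 ratio of GW3965 over DMSO (1 FPKM added) for the measured genes of each chaperone list, 1 point per gene, with a red bar at the list median and a grey band for the central 90% of all measured rows, -0.27 to 0.28. TRiC members lie close together around 0.12, while inducible members run from -0.34 to 0.54.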

How the data were processed

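The authors deposited FPKM values per gene, 1 column per library, and the column sums were 1138432 for GW3965 and 1370700 for DMSO. The submitters' processing notes name GRCm38 (mm10), HTSeq 0.5.4p3 and STAR 2.3.0 without saying how each was used. Neither they nor the labels state the annotation, the strand setting, the handling of reads that match several genes or any filter. TruSeq RNA libraries were built from RNA purified with a Qiagen miRNA kit, per the labels' protocols.

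Depth was recovered from the FPKM steps. With a depth ratio of 1.35303, 97.0% of 29845 rows below 0.3 FPKM in DMSO gave whole-number ratios with denominators up to 60, within the last printed decimal, against 5.01% when that factor was moved by 1%. Union exon lengths of GENCODE M21 less 99 bases gave the depth itself, to which 170 of 11366 rows pointed, against 67 for the next value. For each chaperone the length nearest to the annotated one at which both libraries gave whole reads was taken. The search ran from 0.5 to 1.5 times that annotated length. It was found for 34 of 34, against 3 with the moved factor, and was the only candidate for 16, so reads are estimates. Shared windows were counted over M21 transcripts. Log2 ratios used a pseudocount of 1 FPKM. A gene was measured at a mean of at least 1 FPKM and called at 1.5-fold.

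Members, lists and the rule for named genes (every member, and up to 3 of each other list by absolute log2 ratio) were chosen with earlier results of these data known. Alternatives were pseudocounts, filters, scalings, fold limits, list definitions and counting intervals. The recovery step was tested on simulated data. Software was scipy 1.17.1, pandas 2.3.3, numpy 2.4.6 and matplotlib 3.10.9 under Python 3.11.15.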

Additional observations from a re-analysis of the deposited data

How the results depend on the processing

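No paired analysis was possible because there is a single library per condition. Against 411 rows and 2 chaperones higher and 9 rows lower, the counts were 1024 and 20 rows with a pseudocount of 0.1, and 14 rows lower with a pseudocount of 0.5. With no filter on low values 17 rows were lower, the median log2 ratio of inducible genes was 0.32 and its difference from constitutive genes 0.057, where Hspa1b and Hspb8 came in. The added 1 FPKM shrinks the log2 ratios of both, whose FPKM ratios were 1.41 and 1.86. At a mean FPKM of at least 5 there were 224 rows and 1 chaperone higher and 5 rows lower. At 2-fold there were 117 rows and 0 chaperones higher and 0 rows lower. Centred on the median, 164 rows and 0 chaperones were higher and 40 rows lower, and the medians were 0.11 for all chaperones, 0.20 inducible, 0.019 constitutive and 0.12 TRiC, against 0.35, 0.45, 0.26 and 0.36 as deposited. With the same upper quartile these were 166, 0 and 35, and 0.066, 0.17, -0.026 and 0.078, so the sign of the constitutive median depends on the scaling. Among named protein-coding genes centred on their own median they were 74, 0 and 16, and 0.12, 0.22, 0.031 and 0.13. With the wide inducible list the medians were 0.36 inducible and 0.16 constitutive. By counting intervals 30 measured chaperones were above a ratio of 1, a share not computed for all rows. Of all measured rows, 6.44% had a negative log2 ratio as deposited. By the same intervals 15 chaperones were above and 9 below the median ratio of rows, beside 24.2% and 34.5% of rows with an annotated length. Without the genes that share windows, an alternative chosen after seeing the data, 1 chaperone was higher and the difference between the lists was 0.041. Apart from the genes gained or left out and the construction of the scalings, the cause was not tested. Single chaperones gave 204 values under the alternatives, of which 195 stayed on their side of the limit, 8 (Hsph1 and Hspa1a under the 3 scalings and at 2-fold) lost it, 1 (Hspb8 with a pseudocount of 0.1) gained it and 0 crossed to the opposite limit. The sign turned for 11 of the 34 chaperones, all within the limit, under each of the 3 scalings, Hspa8, Stub1, Hsp90ab1 and Hsf1 among them each time. Depth limits the lowest genes, since 1 read per kilobase is worth 0.0133 FPKM in GW3965 and 0.00982 in DMSO.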

Other observations

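Stress genes outside the chaperones were described from 1 list of 11, all measured. In it 2 genes were higher by 1.5-fold as deposited, against 3.46% of all measured rows, and 0 after centring, against 1.38%, and the median centred log2 ratio was 0.15. The metallothionein Mt2, which binds zinc and copper, had 3.34 FPKM in GW3965 and 1.52 FPKM in DMSO. Gadd45a, induced by DNA damage and growth arrest, had 21.4 and 12.9 FPKM. Hmox1, the haem-degrading enzyme of the oxidative stress response, had 44.7 and 31.9 FPKM. At the other end, and picked after their values were seen, Gadd45b had 27.9 and 27.7 FPKM and Ubb 367 and 364 FPKM, or -0.24 and -0.23 after centring.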
